A study of Mus musculus with 6 samples.

Results

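Genomic imprinting leaves some genes active from the paternal or the maternal copy alone, and many of these genes act on growth. The account here concerns 10 such genes of the mouse: Plagl1 and 9 imprinted genes of growth control, namely H19, Igf2, Cdkn1c, Dlk1, Peg3, Mest, Grb10, Ndn and Meg3. They were picked by name from the 55487 gene identifiers of the count table, of which 19015 passed the filter on low counts, and all 10 members were among these 19015. Plagl1 was picked because its counts differed between the groups in these samples, and the list was drawn up with earlier results of these data in view. The values of the members are therefore a description with no p-value, the number of them past the threshold is given only beside the share of all genes, and adjusted p-values are given for other genes.

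The samples were cultures of cells taken with CD31 MicroBeads from the skin of C57BL/6 mice and held for 48 hours in medium with normal (5 mmol/L) or high (20 mmol/L) glucose. There were 3 samples in each group, and both groups shared the strain, the tissue, the bead isolation and the culture, so that glucose was the labelled difference. The cells came from skin pooled over 4 to 6 mice aged 2 to 3 months. The captions of the study count its replicates by mice, but the labels do not say whether the replicates were separate isolations. A p-value here therefore measures only the spread between these samples, which may be technical. RNA with a poly(A) tail was sequenced, and the total gene counts lay between 120192466 and 146881356 per sample. The study asked how high glucose changes the genes expressed by these cells, which the paper calls endothelial. The endothelial marker Pecam1 had 9 to 19 counts per sample, while the fibroblast marker Col1a1 had 1007482 to 1944287. The endothelial markers Eng (15854 to 22307 counts) and Flt1 (4457 to 8030 counts) were well above Pecam1. The values below are those of whole cultures, and which cells they came from was not tested.

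Plagl1 (also Zac1) encodes a zinc finger transcription factor that can halt the cell cycle, and it is described as a regulator of a network of imprinted genes that includes the other 9. Igf2 is a growth-promoting ligand, and its neighbour H19 is a noncoding RNA made from the opposite parental copy. Cdkn1c is an inhibitor of cyclin-dependent kinases, and Grb10 is an adaptor that dampens insulin and IGF receptor signalling. Dlk1 is a transmembrane protein that restrains adipocyte differentiation, and Meg3 is the noncoding RNA of the same domain. Peg3 is a large zinc finger protein, Mest a membrane protein of the hydrolase fold, and Ndn (necdin) a MAGE family protein that restrains proliferation. Of these genes, Plagl1, Igf2, Dlk1, Peg3, Mest and Ndn are expressed from the paternal copy, and H19, Cdkn1c, Grb10 and Meg3 from the maternal copy. The counts do not separate the parental copies, so no value below speaks of imprinting itself.

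In GRCm38 coordinates from the GENCODE annotation, 5 members lay on chromosome 7: Peg3 (6703892 to 6730431, minus strand), Ndn (62346569 to 62350262, plus), H19 (142575529 to 142578143, minus), Igf2 (142650766 to 142666816, minus) and Cdkn1c (143458339 to 143461050, minus). Dlk1 (109452823 to 109463336) and Meg3 (109541001 to 109571726) lay on the plus strand of chromosome 12. Plagl1 lay on chromosome 10 (13060504 to 13131694, plus), Mest on chromosome 6 (30723547 to 30748465, plus) and Grb10 on chromosome 11 (11930508 to 12038683, minus). H19 and Meg3 are annotated as long intergenic noncoding RNAs and the other 8 as protein-coding genes.

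Plagl1 protein binds GC-rich DNA, and GGGGCCCC is given as its consensus. Promoter windows of 300 bases, from 250 bases before to 50 after a transcription start, were taken from RefSeq (GRCm38.p6) and searched for GGGGCCCC, which reads the same on both strands, and for GGGGCC on either strand (GGCCCC on the strand shown), which is contained in it. Windows matched 8 of the 10 members, H19 and Cdkn1c having no entry. At least 1 window held GGGGCC or GGCCCC in 5 of the 8 (Plagl1, Igf2, Peg3, Mest and Grb10), and that of Peg3 alone held GGGGCCCC. Counted the same way, 27.3% of all genes with a window held the shorter motif and 1.25% the longer one, and of 51 other imprinted genes with a window 19 held the shorter and 4 the longer. Some members had several windows: the motif was in 2 of 4 for Igf2, in 1 of 2 for Grb10 and in all 3 for Mest, and in none of those of Dlk1, Meg3 and Ndn. Windows with the motif are shown for Plagl1, Peg3, Mest and Grb10, and windows without it for Ndn and Dlk1, so that both kinds can be read. They were picked with the values known, and no relation between motif and glucose is read from them. Each is written 5′ to 3′ on the strand of the gene, with the motif in capitals.
Plagl1, chr10:13090582-13090881, plus strand: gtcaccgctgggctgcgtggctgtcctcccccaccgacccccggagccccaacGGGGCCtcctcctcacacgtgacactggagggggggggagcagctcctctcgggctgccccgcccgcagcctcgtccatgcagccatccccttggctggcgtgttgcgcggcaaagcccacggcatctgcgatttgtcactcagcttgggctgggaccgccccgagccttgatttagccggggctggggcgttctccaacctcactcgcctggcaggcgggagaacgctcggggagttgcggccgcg
Peg3, chr7:6730370-6730669, minus strand: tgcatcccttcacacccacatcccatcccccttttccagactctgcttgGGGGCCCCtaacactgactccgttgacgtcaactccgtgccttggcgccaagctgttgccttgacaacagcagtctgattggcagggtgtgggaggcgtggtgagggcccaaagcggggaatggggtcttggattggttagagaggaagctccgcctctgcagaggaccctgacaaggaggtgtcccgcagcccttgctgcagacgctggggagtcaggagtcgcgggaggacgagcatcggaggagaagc
Mest, chr6:30737800-30738099, plus strand: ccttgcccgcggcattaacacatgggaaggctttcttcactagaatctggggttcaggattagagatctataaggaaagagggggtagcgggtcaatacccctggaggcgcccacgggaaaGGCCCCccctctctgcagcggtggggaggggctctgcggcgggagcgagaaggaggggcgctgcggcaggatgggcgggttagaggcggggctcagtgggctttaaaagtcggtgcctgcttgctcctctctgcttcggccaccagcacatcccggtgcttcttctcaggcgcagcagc
Grb10, chr11:12037371-12037670, minus strand: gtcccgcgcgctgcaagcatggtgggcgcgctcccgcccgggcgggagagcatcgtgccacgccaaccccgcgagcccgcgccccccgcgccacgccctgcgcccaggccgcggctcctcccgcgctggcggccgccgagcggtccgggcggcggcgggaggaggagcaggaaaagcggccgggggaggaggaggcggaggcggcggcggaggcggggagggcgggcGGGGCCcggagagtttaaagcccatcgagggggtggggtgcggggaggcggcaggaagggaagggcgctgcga
Ndn, chr7:62348027-62348326, plus strand: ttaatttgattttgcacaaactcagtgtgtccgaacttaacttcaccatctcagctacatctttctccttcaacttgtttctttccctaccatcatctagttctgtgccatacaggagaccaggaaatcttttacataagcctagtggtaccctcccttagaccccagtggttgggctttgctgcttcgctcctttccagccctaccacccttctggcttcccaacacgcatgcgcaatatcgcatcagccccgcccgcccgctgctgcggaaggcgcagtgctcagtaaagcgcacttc
Dlk1, chr12:109452573-109452872, plus strand: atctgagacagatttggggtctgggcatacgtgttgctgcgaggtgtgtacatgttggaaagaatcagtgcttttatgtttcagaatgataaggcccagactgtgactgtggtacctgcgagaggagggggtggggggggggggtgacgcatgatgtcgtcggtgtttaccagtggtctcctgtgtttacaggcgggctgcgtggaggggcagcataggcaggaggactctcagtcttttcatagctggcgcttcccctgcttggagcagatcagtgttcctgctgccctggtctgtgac
The Plagl1 window held 26 CpG dinucleotides and the Grb10 window shown 45, against 13 for Peg3, 17 for Mest, 11 for Ndn, 9 for Dlk1 and a median of 7 over all windows. The GC content was 70.7% in the Plagl1 window and 80% in that of Grb10, with a median of 52.7% over all windows. The second Grb10 window, without the motif, had 9 CpG dinucleotides and a GC content of 52.3%. A match is a description of the letters in the window and not a binding site.

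Some members are also hosts of microRNAs, whose mature strands are not captured in poly(A) libraries. The mature strands of the microRNAs in H19 and Mest are shown with their seeds (bases 2 to 8) in capitals. Igf2 and Meg3 also hold microRNAs, which are not shown. The counts of the host transcripts give no level of the mature strands.
miR-675-5p of H19: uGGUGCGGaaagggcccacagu
miR-675-3p of H19: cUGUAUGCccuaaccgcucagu
miR-335-5p of Mest: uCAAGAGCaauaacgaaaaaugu
miR-335-3p of Mest: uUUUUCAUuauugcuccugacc
No seed was shared among these strands. The hairpin gene Mir675, which lies within H19, had a count of 1 in each of the 6 samples. Mir770 and Mir1906-1, which lie within Meg3, had the same constant count, so it is not read as a level of the hairpin.

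Plagl1 had the largest difference of the 10 genes. Its raw count was 1424, 1506 and 1344 in the normal glucose samples and 4287, 3711 and 3992 in the high glucose samples. As normalized CPM (counts per 1000000 counts of the library, after TMM scaling), Plagl1 was at 11.4, 10.6 and 10.5 in normal glucose and at 30.2, 31.9 and 29.6 in high glucose. The groups lay far apart, and the mean went from 10.8 ± 0.475 to 30.6 ± 1.19 CPM (SD, n = 3), which is 2.82-fold. The fitted log2 fold change (high minus normal glucose) was 1.5 with a standard error of 0.060. Of all tested genes, 0.878% had a higher log2 fold change than Plagl1.

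The growth ligand of the set, Igf2, was also higher in all high glucose samples. Igf2 was at 10.4, 12.1 and 11.5 CPM in normal glucose and at 20.3, 20.1 and 21.2 CPM in high glucose. The means were 11.3 ± 0.867 and 20.5 ± 0.616 CPM (SD, n = 3), and the fitted log2 difference was 0.86 (SE 0.069). H19, its neighbour, was at 32.2, 32.4 and 34.2 CPM in normal glucose and at 36.8, 36.2 and 39.0 CPM in high glucose. The groups of H19 did not overlap, but the difference was small, with a log2 fold change of 0.18 (SE 0.054) that was 0.066 when counts were scaled by library size alone. That scaling lowered the median of all tested genes to -0.11, and relative to this median H19 was at 0.17. Both genes share an enhancer, and the ratio of their counts within a library depends on no scaling between libraries. Igf2 counts per H19 count were 0.322, 0.372 and 0.336 in normal glucose against 0.550, 0.555 and 0.545 in high glucose, so every high glucose sample had the higher ratio.

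Among the genes that restrain growth, Cdkn1c was at 21.4, 18.6 and 21.0 CPM in normal glucose and at 37.5, 35.9 and 35.1 CPM in high glucose. The means of Cdkn1c were 20.3 ± 1.52 and 36.1 ± 1.22 CPM (SD, n = 3), and the log2 fold change was 0.83 (SE 0.065). Grb10, the adaptor of insulin and IGF receptors, was at 220.3, 236.7 and 224.1 CPM in normal glucose and at 309.9, 317 and 311.1 CPM in high glucose. The Grb10 groups did not overlap, and the log2 fold change was 0.46 (SE 0.050). Ndn went the other way. It was at 85.4, 77.7 and 83.6 CPM in normal glucose and at 73.0, 76.0 and 72.5 CPM in high glucose, with no overlap between the groups and a log2 fold change of -0.16 (SE 0.054).

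Mest was at 15.4, 17.4 and 16.8 CPM in normal glucose and at 27.8, 31.9 and 29.8 CPM in high glucose. The Mest groups did not overlap, and the log2 fold change was 0.85 (SE 0.068). Peg3 was at 30.5, 33.8 and 32.2 CPM in normal glucose and at 41.2, 42.1 and 41.9 CPM in high glucose. The high glucose samples of Peg3 were close to each other (41.7 ± 0.445 CPM, SD, n = 3) and above all normal glucose samples (32.1 ± 1.65 CPM). Its log2 fold change was 0.38 (SE 0.054), and it was 0.18 once the trend of fold changes with GC content and transcript length over all genes had been removed.

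The 2 members of the Dlk1-Meg3 domain did not separate the groups. Dlk1 was at 38.9, 36.2 and 39.7 CPM in normal glucose and at 40.2, 41.0 and 39.2 CPM in high glucose, with overlapping groups and a log2 fold change of 0.069 (SE 0.055). The sign for Dlk1 turned under library size scaling (-0.046), and relative to the median of all genes under that scaling it was 0.063. Meg3 was at 346.0, 316.6 and 261.3 CPM in normal glucose and at 358.4, 223.8 and 336.4 CPM in high glucose. High glucose replicate 2 was the lowest Meg3 value of all 6 samples, the spread within each group was wide, and the log2 fold change was -0.0080 (SE 0.157). Without that sample it was 0.16, and with the trend of GC content and length removed it was -0.35.

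**Figure D1:**
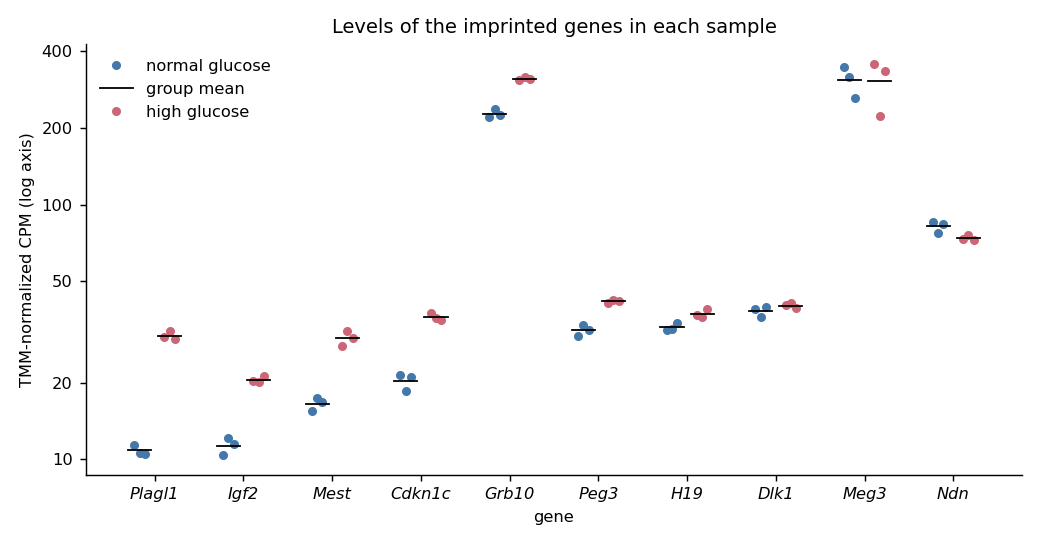
Normalized CPM of the 10 genes (x axis, ordered by log2 fold change) on a log axis, with 1 point per sample (normal glucose blue, high glucose red) and a line at the group mean (n = 3). Plagl1 at the left goes from 10.8 to 30.6 CPM, while the points of Dlk1 and Meg3 overlap between groups.

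By the test applied to all genes (edgeR's quasi-likelihood test, Benjamini-Hochberg adjusted p under 0.05), 7 of the 10 genes were past the threshold and higher in high glucose (Plagl1, Igf2, Mest, Cdkn1c, Grb10, Peg3 and H19), and 0 were past it and lower (1, Ndn, at an unadjusted p under 0.05 and 1 by DESeq2). Of all 19015 tested genes, 16.9% were past the threshold and higher and 14.5% were past it and lower. Groups did not overlap and were higher for 7 members, and lower for 1 (Ndn), against 25.1% and 21.3% of all tested genes. The choice of the members used this contrast, so nothing is read from these counts. H19 and Ndn lay near the threshold: each was past it in 10 of 18 other settings of the analysis. The percent of tested genes with a higher log2 fold change was 3.26 for Igf2, 3.31 for Mest, 3.47 for Cdkn1c, 9.40 for Grb10, 12.6 for Peg3, 26.7 for H19, 41.0 for Dlk1, 52.1 for Meg3 and 70.4 for Ndn. Of the 6 paternally expressed members 4 were past the threshold, and of the 4 maternally expressed members 3 were.

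To compare levels between genes, counts were divided by exonic length and scaled to a sum of 1000000 per sample (TPM). In normal glucose the highest level was that of Grb10 (90.6 ± 6.02 TPM, SD, n = 3), followed by Ndn (80.6 ± 1.78), Meg3 (61.7 ± 8.26), H19 (48.5 ± 2.13), Cdkn1c (36.1 ± 1.77), Dlk1 (24.5 ± 0.790), Mest (15.2 ± 1.33), Peg3 (8.75 ± 0.699), Igf2 (7.18 ± 0.748) and Plagl1 (5.02 ± 0.146 TPM). The ranges of neighbours in this order did not overlap. In high glucose Grb10 (125 ± 0.624 TPM) and Ndn (72.3 ± 1.29 TPM) again had the highest mean levels. Cdkn1c (64.2 ± 2.79 TPM), Meg3 (61.4 ± 15.1 TPM) and H19 (54.9 ± 2.34 TPM) followed, and the range of Meg3 (44.2 to 72.6 TPM) overlapped those of Ndn (71.0 to 73.6 TPM), Cdkn1c and H19. Mest (27.4 ± 1.54 TPM) and Dlk1 (25.7 ± 0.539 TPM) overlapped as well. Plagl1 (14.2 ± 0.448 TPM) moved from the lowest place to above Igf2 (13 ± 0.434 TPM) and Peg3 (11.3 ± 0.0408 TPM). Even so, Plagl1 stayed a low-level transcript in both groups beside Grb10 and Ndn.

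**Figure D2:**
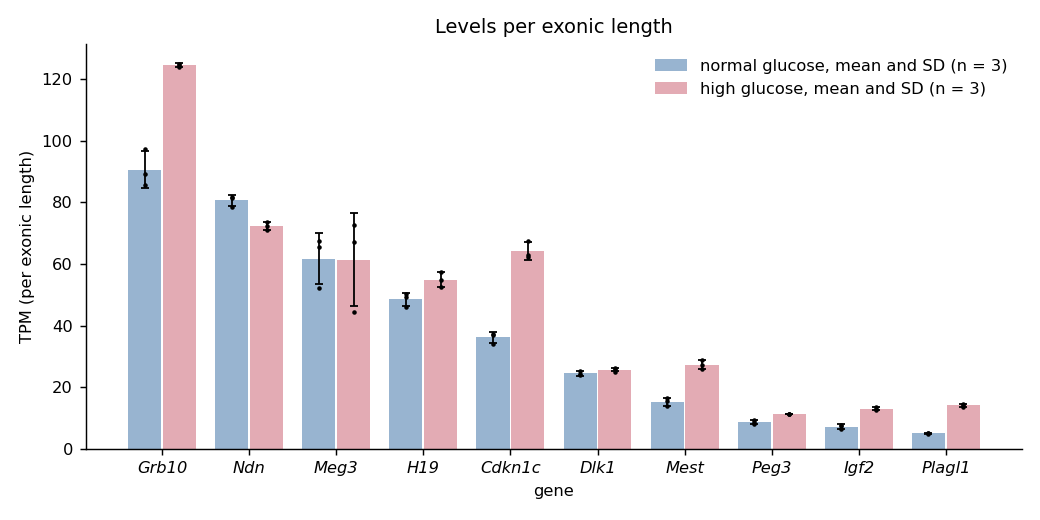
Level per exonic length (TPM, y axis from 0) of the 10 genes, ordered by the level in normal glucose; bars are means, error bars the SD (n = 3) and dots the samples. Grb10 is highest in both groups, and Plagl1 goes from 5.02 to 14.2 TPM.

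Imprinted genes lie in clusters that share control regions, so the other genes of the members' domains were examined, from a list of 66 further imprinted genes of which 56 were tested. Of the 56, 8 were called higher and 12 lower, or 14.3% and 21.4%, against 16.9% and 14.5% of all tested genes. Their median log2 fold change was -0.024, beside 0.0062 for all tested genes. The expressed copy of each gene was taken from general knowledge, and whether it holds in these cells was not tested. By that listed copy, 5 of 27 paternally expressed genes were higher and 3 lower, and 3 of 29 maternally expressed genes were higher and 9 lower. In the domains of the members 3 of 25 genes were higher and 5 lower, and outside them 5 of 31 were higher and 7 lower.

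In the domain of Plagl1, the other gene was Phactr2, a regulator of protein phosphatase and actin, which rose from 27.0 ± 2.31 to 35.9 ± 0.316 CPM (SD, n = 3; log2 fold change 0.41, adjusted p 0.000886; 0.24 with the trend of GC content and length removed). Around Cdkn1c, the genes called went down while Cdkn1c was higher. Tssc4 fell from 52.7 ± 5.18 to 37.3 ± 0.872 CPM (log2 fold change -0.50, adjusted p 0.000414). Cd81, a tetraspanin of the cell surface, fell from 522 ± 12.9 to 421 ± 17 CPM (-0.31, adjusted p 0.00134). Ascl2, a transcription factor at a low level, fell from 0.609 to 0.331 CPM (-0.88, adjusted p 0.0175), a call that was lost without high glucose replicate 1 (-0.72, adjusted p 0.066). Kcnq1ot1, the noncoding RNA that silences this domain on the paternal copy, was at 0.53 (adjusted p 0.0908), which passed the threshold without normal glucose replicate 1 (0.69, adjusted p 0.0339). Slc22a18 (0.20, adjusted p 0.386) and Osbpl5 (-0.020, adjusted p 0.806) were not called.

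In the Dlk1-Meg3 domain, other genes were called in opposite directions. Rian, a noncoding RNA downstream of Meg3 that hosts small nucleolar RNAs, fell from 199 ± 14.5 to 148 ± 5.62 CPM (log2 fold change -0.43, adjusted p 0.000556). Dio3, which inactivates thyroid hormone, rose from 11.0 ± 0.448 to 13.9 ± 0.369 CPM (0.34, adjusted p 0.00267). Mirg, a microRNA host gene, was at -0.17 (adjusted p 0.339), Begain at 0.20 (adjusted p 0.111) and Rtl1 at -0.069 (adjusted p 0.768). Meg3, Rian and Mirg are thought to be read in 1 direction from the maternal copy, and Meg3 counts per Rian count were 1.71, 1.49 and 1.42 in normal glucose against 2.34, 1.57 and 2.24 in high glucose. The groups of this ratio overlapped through high glucose replicate 2.

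In the Snrpn domain, which holds Ndn, the splicing protein gene Snrpn fell from 14.3 ± 1.27 to 10.7 ± 0.585 CPM (log2 fold change -0.42, adjusted p 0.0026). Peg12 rose from 4.81 ± 0.254 to 5.90 ± 0.292 CPM (0.29, adjusted p 0.0245), but its call was lost without normal glucose replicate 2 or any 1 of the high glucose replicates (0.25 to 0.32, adjusted p 0.0521 to 0.116). Snhg14 was at -0.58 (adjusted p 0.0632), and passed the threshold without high glucose replicate 3 (-0.81, adjusted p 0.0324). Ube3a (-0.024), Mkrn3 (-0.024), Atp10a (0.18) and Snurf (0.43) were not called. The partners of Peg3 (Usp29 at -0.30, Zim1 at 0.38 and Zfp264 at 0.26), of Mest (Copg2 at 0.079), of Grb10 (Ddc at -0.32) and of Igf2 (Igf2os at 0.61) were not called either, and all but Copg2 were below 0.5 CPM on average. Zim1 lay between 0.26 and 0.50 over its 17 other settings. For Usp29, Igf2os, Zfp264, Ddc and Snurf, all at low levels, the value shifted with the sample left out. Without high glucose replicate 3 it was -0.81 for Usp29 and 0.28 for Igf2os. Without high glucose replicate 2 it was -0.036 for Usp29, 0.55 for Zfp264 and -0.64 for Ddc, and Zfp264 was at -0.029 without high glucose replicate 1. Snurf was at 0.0051 without normal glucose replicate 2 and at 0.76 without normal glucose replicate 3.

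**Figure D3:**
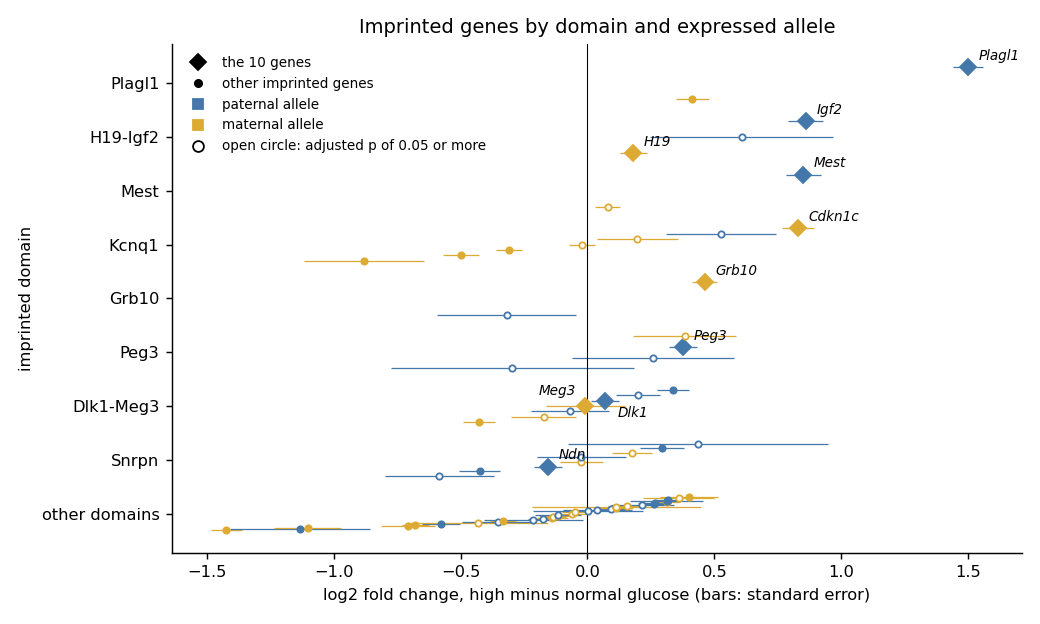
Log2 fold change (x axis, bars are standard errors) of the 10 genes (diamonds) and the 56 other tested imprinted genes (circles), by imprinted domain. Colours give the listed expressed copy (blue paternal, yellow maternal), which was not tested in these cells. Filled circles have an adjusted p under 0.05; Plagl1 lies at 1.5, and the Dlk1-Meg3 and Snrpn domains each hold a filled circle on either side of 0.

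Outside the members' domains, the largest rises past the threshold were small: Asb4 (log2 fold change 0.40, adjusted p 0.0233), Zrsr1 (0.32, adjusted p 0.000866), Trappc9 (0.31, adjusted p 0.00127), Inpp5f (0.26, adjusted p 0.0107) and Sgce (0.26, adjusted p 0.00449). The call for Asb4 was lost without normal glucose replicate 2 or 3 or high glucose replicate 1 or 3 (0.29 to 0.40, adjusted p 0.0513 to 0.137), and that for Inpp5f without high glucose replicate 1 or 2 (0.21 to 0.24, adjusted p 0.057 to 0.0649). The largest falls were larger. Tfpi2, an inhibitor of serine proteases, fell from 34.1 ± 2.19 to 12.7 ± 0.201 CPM (-1.42, adjusted p 1.2e-07). Gatm, an enzyme of creatine synthesis, fell by 1.10 on the log2 scale (adjusted p 0.000132), and Htr2a, a serotonin receptor, by 0.71 (adjusted p 0.000629). Qpct, a glutaminyl cyclase, fell from 26.9 ± 0.619 to 16.8 ± 0.416 CPM (-0.68, adjusted p 6.3e-06), and Peg10, a gene derived from a retrotransposon, from 75.7 ± 7.44 to 50.7 ± 2.55 CPM (-0.58, adjusted p 0.000208). Sgce and Peg10 are paternally expressed from starts that lie close together, and they moved apart: Sgce counts per Peg10 count were 1.2, 0.999 and 1.17 in normal glucose against 1.79, 2.03 and 2.17 in high glucose. Klf14 and Slc22a2 had counts of 0 in all samples, and 5 of the 66 genes had at most 3 counts in every sample.

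The non-imprinted relatives of the members were then compared with them. Both paralogs of Plagl1 were called higher. Plag1 rose from 7.04 ± 1.60 to 10.1 ± 0.0521 CPM (log2 fold change 0.52, adjusted p 0.0156) and Plagl2 from 12.4 ± 0.709 to 15.6 ± 0.700 CPM (0.33, adjusted p 0.00465). The Plag1 call was lost without normal glucose replicate 3 or high glucose replicate 1 or 2 (0.50 to 0.51, adjusted p 0.0543 to 0.0621). Plagl1 counts per Plagl2 count were 0.975, 0.812 and 0.836 in normal glucose against 2.00, 2.09 and 1.81 in high glucose. The IGF ligand Igf1 rose from 27.9 ± 1.61 to 57.8 ± 2.89 CPM (1.05, adjusted p 9.6e-07), as Igf2 was also higher.

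The cell cycle inhibitors of the Cdkn1 family differed in direction. Cdkn1a (p21) fell from 546 ± 27.0 to 328 ± 7.63 CPM (log2 fold change -0.73, adjusted p 4.7e-06), while Cdkn1b (p27) rose from 49.1 ± 3.36 to 60.9 ± 0.848 CPM (0.31, adjusted p 0.00273). Cdkn1c counts per Cdkn1a count were 0.0374, 0.0359 and 0.0385 in normal glucose against 0.111, 0.110 and 0.109 in high glucose. Dlk2, the relative of Dlk1, fell from 3.65 ± 0.381 to 1.62 ± 0.0875 CPM (-1.16, adjusted p 2.9e-05). Grb14, an adaptor related to Grb10, was at -0.22 (adjusted p 0.0179), and its call was lost without high glucose replicate 1 or 3 (-0.24 to -0.21, adjusted p 0.0503 to 0.0697). Among MAGE genes related to Ndn, Maged2 was at -0.20 (adjusted p 0.0193), lost without normal glucose replicate 3 or high glucose replicate 1 or 3 (-0.21 to -0.18, adjusted p 0.0552 to 0.0689), and Maged1 (0.098, adjusted p 0.176) and Nsmce3 (-0.11, adjusted p 0.297) were not called. In all, 4 of 10 tested relatives were called higher and 4 lower (40% each), against 16.9% and 14.5% of all tested genes. Grb7 had counts of 0 in all samples.

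**Figure D4:**
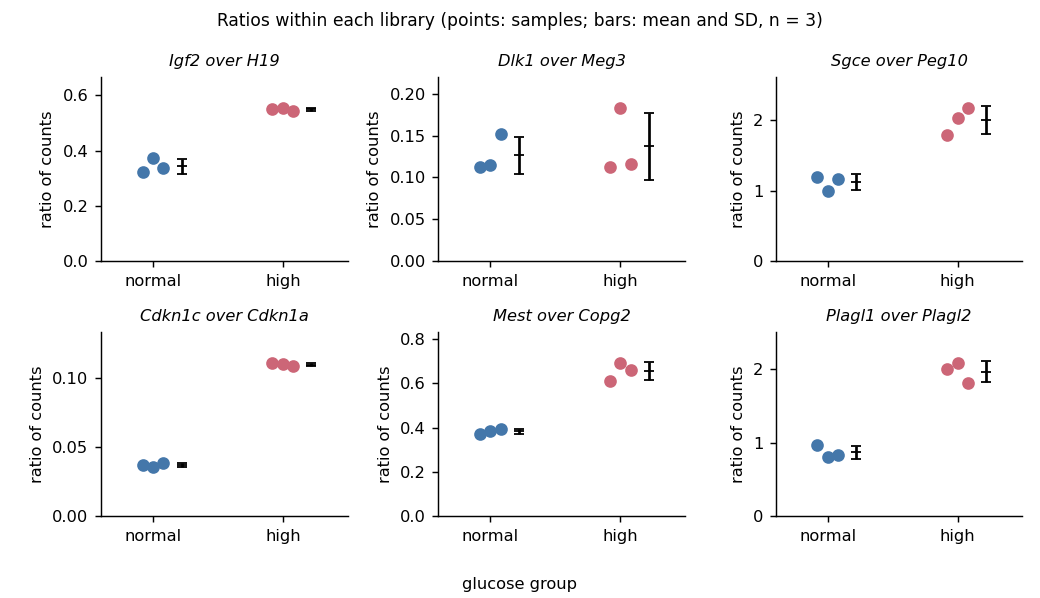
Ratios of the counts of gene pairs within each library (y axis from 0), with 1 point per sample and the mean and SD (n = 3) beside the points. The groups separate for Igf2 over H19, Sgce over Peg10, Cdkn1c over Cdkn1a, Mest over Copg2 and Plagl1 over Plagl2, and overlap for Dlk1 over Meg3.

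Of 8 genes that are known as targets of Plagl1 in other cells 7 were tested, and 1 was called higher and 2 lower (14.3% and 28.6%), against 16.9% and 14.5% of all tested genes. The median log2 fold change was -0.23. Adcyap1r1, the PACAP receptor, fell from 5.41 ± 0.598 to 1.72 ± 0.466 CPM (-1.65, adjusted p 6.9e-05), and Cdkn1a fell as given above. Socs3, an inhibitor of cytokine signalling, rose from 210 ± 17.1 to 255 ± 2.70 CPM (0.28, adjusted p 0.00689). Pparg (0.044, adjusted p 0.587), Slc2a4 (-0.23, adjusted p 0.162), Tcf4 (-0.044, adjusted p 0.612) and Rasgrp1 (-0.23, adjusted p 0.484) were not called. Krt14 was not tested, with counts of 2, 0 and 0 in normal glucose against 35, 9 and 31 in high glucose. Of the 12370 tested genes with a promoter window, 19.1% were called higher and 15.1% lower. GGGGCC or GGCCCC was in the window of 4912, and 21.1% of these were called higher, against 17.8% of the 7458 without it. In both, 15.1% were called lower. Of the 218 genes with GGGGCCCC, 23.9% were called higher and 15.6% lower. The motif holds only G and C, and the part of GC content in these shares was not tested.

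Igf2 acts through receptors and binding proteins. The list of these also held Igf2bp1, Igf2bp2 and Igf2bp3, which bind mRNA rather than the ligand. Of its 12 tested genes 6 were called higher, among them Igf2bp2 (log2 fold change 0.28, adjusted p 0.00511), and 1 lower. These are 50% and 8.33%, against 16.9% and 14.5% of all tested genes. The median log2 fold change of the list was 0.21. The binding proteins Igfbp4 (200 ± 14.6 to 407 ± 7.88 CPM, 1.02, adjusted p 1e-06) and Igfbp5 (237 ± 23.4 to 371 ± 9.96 CPM, 0.65, adjusted p 7.3e-05) rose the most, with the insulin receptor Insr (0.49, adjusted p 0.000157; 0.28 with the trend of GC content and length removed). Igfbp6, which prefers Igf2 over Igf1, fell from 134 ± 11.4 to 107 ± 1.13 CPM (-0.33, adjusted p 0.00343). The receptors Igf1r (0.030, adjusted p 0.733) and Igf2r (0.11, adjusted p 0.22) were not called.

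Of the factors that set or keep methylation at imprinted loci, 11 of 18 tested genes were called higher and 1 lower (61.1% and 5.56%). Of all tested genes, 16.9% were called higher and 14.5% lower. The median log2 fold change of the 18 was 0.20. The largest rises were those of the demethylase Tet1 (1.41 ± 0.0757 to 2.27 ± 0.0402 CPM, log2 fold change 0.69, adjusted p 0.00065) and of the de novo methyltransferases Dnmt3b (0.67, adjusted p 0.00213) and Dnmt3a (28.8 ± 1.78 to 44.8 ± 1.04 CPM, 0.64, adjusted p 2.1e-05). With the trend of GC content and length removed, Tet1 was at 0.42 and Dnmt3a at 0.37. Uhrf1, which brings the maintenance methyltransferase to replicated DNA, fell from 15.1 ± 0.819 to 8.07 ± 1.02 CPM (-0.90, adjusted p 5.3e-05). The genes that are expressed in dividing cells went down together: all 10 proliferation markers were called lower, against 14.5% of all tested genes. Their median was -0.94, and the largest falls were those of Bub1 (-1.33), Ccnb1 (-1.29) and Plk1 (-1.13). The adjusted p-values of the 10 lay between 3.4e-07 (Ccnb1) and 0.00213 (Pcna).

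The marker genes of cell types moved as well. Their counts of calls, here and in the next paragraph, stand beside 16.9% called higher and 14.5% called lower of all tested genes. Some endothelial markers were near 0 in both groups, among them Pecam1, Tie1, Emcn and Cldn5. Pecam1 counts ranged from 9 to 18 under high glucose, against 12 to 19 under normal glucose. Others were clearly detected: Kdr averaged 4.96 CPM (normal) and 5.50 CPM (high), and Eng 155 and 140 CPM. The summed level of the 14 markers was 204 to 232 CPM in normal glucose and 185 to 191 CPM in high glucose, mostly from Eng and Flt1. Cdh5 fell from 1.80 ± 0.0797 to 0.876 ± 0.0806 CPM (log2 fold change -1.03, adjusted p 0.000139) and Flt1 from 55.3 ± 2.06 to 38.4 ± 0.153 CPM (-0.53, adjusted p 3e-05). Tek rose from 1.29 ± 0.134 to 2.04 ± 0.127 CPM (0.66, adjusted p 0.00219). Erg, below 0.2 CPM, was called higher (1.45, adjusted p 0.0453), a call lost when any sample but normal glucose replicate 2 was left out (1.09 to 1.54, adjusted p 0.0865 to 0.139), and Kdr was not called (0.15, adjusted p 0.252). Of 10 tested endothelial markers 2 were thus called higher and 2 lower. The summed level of 12 fibroblast markers was 41093 to 44443 CPM in normal glucose and 72312 to 77265 CPM in high glucose, most of it from the collagen genes Col1a1, Col1a2 and Col3a1. Of these markers 8 were called higher, among them Col3a1 (1.39, adjusted p 1.4e-07), and 4 lower, among them S100a4 (-1.28, adjusted p 3.8e-07). The 6 adipocyte markers went from 4469 to 4748 CPM in normal glucose to 6698 to 7196 CPM in high glucose, mostly from Lpl (4213 ± 131 to 6476 ± 233 CPM). Of these 4 were called higher, while Pparg (0.044, adjusted p 0.587) and Fabp4 (0.11, adjusted p 0.475) were not. The 8 markers of pericytes and smooth muscle summed to 1191 to 1276 and to 1079 to 1149 CPM, with 1 called higher and 4 lower.

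Markers of 4 further cell types were low. Keratinocyte markers (6 genes, 1 of 3 tested called higher) summed to 4.03 to 5.03 CPM in normal and 4.61 to 5.04 CPM in high glucose, and macrophage markers (5 genes, 2 of 3 tested called lower) to 8.33 to 9.35 and 5.72 to 6.52 CPM. The keratinocyte marker called higher was Krt5 (log2 fold change 2.95), and Krt14, whose counts are given above, is on the same list. Schwann cell and melanocyte markers (4 genes, 2 of 3 tested called lower) summed to 13.3 to 14.6 and 10.3 to 11.0 CPM. Skeletal muscle progenitor markers (8 genes, 1 of 2 tested called lower) summed to 0.853 to 1.05 and 0.364 to 0.550 CPM, and Myod1, Myf5 and Myog were at 0 in all samples. Several of the 10 members are expressed in fibroblasts and other mesenchymal cells, and the part of these markers in the members' differences was not tested. In bulk samples fewer cells of a type and less RNA per cell cannot be told apart.

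Of 12 tested genes that start within 1000000 bases of the Plagl1 start on chromosome 10, 3 were called higher (25%), 2 lower (16.7%) and 7 were not called, against 16.9% and 14.5% of all tested genes, with a median log2 fold change of 0.0020. The nearest, Sf3b5 (start at -55161 bases from that of Plagl1), was at -0.090 and Stx11 (-96206 bases) at 0.20, neither of them called. Utrn rose (0.46, adjusted p 0.00256; 0.18 with the trend of GC content and length removed), as did Phactr2, and Aig1 fell from 19.1 ± 1.68 to 11.4 ± 0.225 CPM (-0.75, adjusted p 3.2e-05), as did Fuca2 (-0.22, adjusted p 0.00732). Ltv1 (0.20, adjusted p 0.03) was called, but not without normal glucose replicate 2 or 3 or high glucose replicate 2 or 3 (0.15 to 0.17, adjusted p 0.0679 to 0.149).

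**Figure D5:**
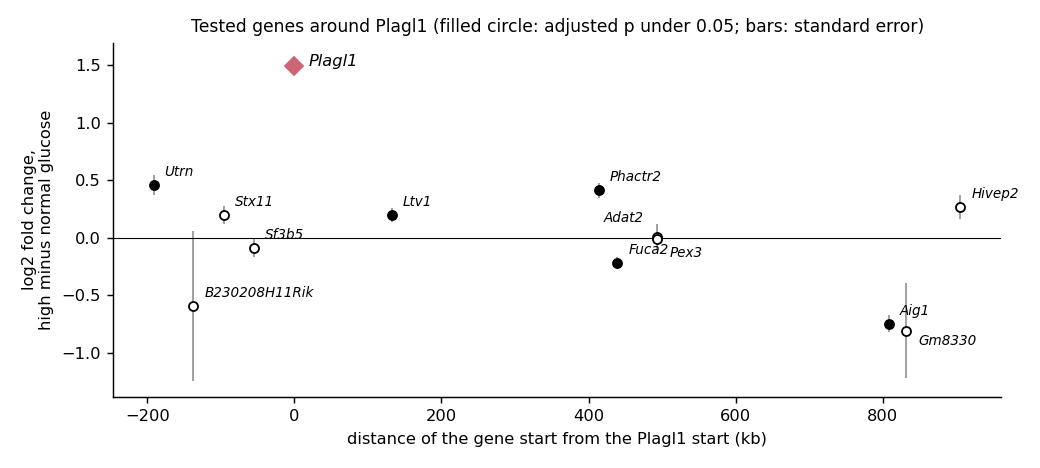
Log2 fold change (y axis, bars are standard errors) of the 12 tested genes around Plagl1 by distance of their start from its start in kb (x axis, along the chromosome). Plagl1 (diamond) lies at 1.5, and the other genes lie on both sides of 0.

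The genes whose log2 CPM followed that of Plagl1 most closely over the 6 samples were Cbln1 (Pearson r 0.9995), Wfdc17 (0.9994), Tnfsf11 (0.9992), Slc27a6 (0.999) and Clec3b (0.999). The 6 points fall into the 2 glucose groups, so r mostly follows the difference between groups, and 227 of the 12478 genes compared had r above 0.99. Of the other members, Cdkn1c (0.988), Grb10 (0.986), Mest (0.981), Igf2 (0.977) and Peg3 (0.965) had r above 0.95, as did 1139 of the 12478 genes. H19 (0.881), Dlk1 (0.631), Meg3 (-0.073) and Ndn (-0.833) did not. The members were chosen with this contrast known, so nothing is read from their r. Among other imprinted genes, r was -0.994 for Tfpi2 and -0.993 for Qpct.

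Some members share exonic bases with other annotated genes, and it is not given whether reads were counted by strand. Of the exonic bases of Igf2, 62.8% lie in Gm49394 on the same strand, which had counts of 0 in all samples. Cdkn1c shares 30.7% with the antisense gene Gm44732 (4 to 15 counts per sample), and Mest 23.1% with Copg2 on the opposite strand. Mest counts per Copg2 count were 0.371, 0.387 and 0.394 in normal glucose against 0.611, 0.693 and 0.662 in high glucose. How reads in these stretches were divided between the genes of a pair was not tested.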

How the data were processed

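Per the paper and the processing notes, reads were trimmed (Trimmomatic), aligned to GRCm38, also called mm10 (HISAT2), and turned into gene counts (StringTie) by the authors. They deposited raw counts for 6 samples with no normalization. Versions, annotation release and strand setting are not given in the sources used here. Symbols, positions and exonic lengths came from GENCODE for GRCm38 (55227 of 55487 identifiers matched). The analysis used edgeR 4.0.16 under R 4.3.3 (TMM scaling; filterByExpr at a minimum count of 10; quasi-likelihood test; Benjamini-Hochberg over 19015 genes; threshold 0.05), without a replicate block. The fit was checked on simulated counts. A count of 3 corresponds to 0.0211 to 0.0258 CPM, and such floors cover counting error only. The members and all lists were chosen with earlier results of these data known. Genes named beside the members were, by rule, those of the members' imprinted domains, the 5 largest called rises and falls among other imprinted genes (mean log2 CPM of at least 0, no overlap between groups), all tested relatives and Plagl1 targets, called genes near Plagl1, the 5 genes most like Plagl1 (mean log2 CPM of at least 1) and the 3 largest called rises and falls of other lists. Of the marker lists few are named. Alternatives were other scalings (library size, RLE, upper quartile), filters, tests (DESeq2 1.42.0, likelihood ratio, robust fitting), halved counts, a stricter threshold, removal of the trend with GC content and length (mgcv 1.9.3), the replicate block and each sample left out.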

Additional observations from a re-analysis of the deposited data

How the results depend on the processing

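There were 3 samples in each group, and no count of a member was below 1298 (Igf2) in any sample. Whether depth or the spread between libraries limited the calls of the 10 genes was not tested. Under library size scaling the median log2 fold change of all tested genes was -0.11, the share of lower calls among all calls went from 46.2% to 72.9% (56.5% under upper quartile scaling), and 4884 genes were called lower and 1819 higher, where TMM gave 2757 and 3212. Of the other imprinted genes 19 were then lower and 4 higher, with a median of -0.14. With the trend of GC content and length removed, 19 of the other imprinted genes were called lower. Over all 18981 genes tested in that setting, 3600 were called lower and 2975 higher. Library size scaling also ended the calls of Peg12 (0.18), Asb4 (0.29), Inpp5f (0.15), Sgce (0.15), Socs3 (0.17) and Ltv1 (0.084). At an adjusted p under 0.01, 1671 genes were called lower and 1946 higher. Among the other imprinted genes, 10 were then lower and 5 higher.

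The count of members past the threshold and lower, 0 by TMM, was 1 (Ndn) under RLE, library size and upper quartile scaling, with no filter, with a filter of at least 1 CPM in 3 samples, by DESeq2, on halved counts and with the trend of GC content and length removed. Leaving out 1 sample at a time gave 2048 to 3065 genes called lower and 1988 to 3149 higher over all genes, 0 to 1 members lower and 6 to 7 higher, 11 to 15 other imprinted genes lower and 5 to 11 higher, and a median of -0.069 to -0.012. The lowest counts of higher genes came without high glucose replicate 1 (2010 genes, 5 other imprinted genes) and without high glucose replicate 3 (1988 genes), and the count of 1 member lower came without normal glucose replicate 1 or 2. With 1 sample left out, H19 was past the threshold only without normal glucose replicate 3. What caused these shifts was not tested, and the fits with 1 sample left out also rest on fewer samples.

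The log2 fold change of Plagl1 lay between 1.38 and 1.52 over all 18 settings, and Plagl1, Igf2, Cdkn1c, Peg3, Mest and Grb10 were past the threshold and higher in each of them. Among 94 named genes beside the members, 1602 of 1672 values under other settings kept the side of the threshold, 60 lost the call and 10 gained one. The sign changed in 10 values of 7 genes (Copg2, Maged1, Pparg, Mkrn3, Ube3a, Zfp264 and Rtl1), 0 of which were called under TMM or under the alternative. Deviations from the group means over all tested genes, taken between samples with equal numbers, had correlations of -0.025, 0.0038 and 0.013. No pairing by replicate number was thus seen over all genes. Pairing that touches only some genes would not be seen this way, and the labels do not state how samples were paired. A replicate block gave 2418 genes called lower and 2909 higher, 7 members past the threshold and higher, and 12 and 8 other imprinted genes lower and higher.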

Other observations

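Other values on imprinted genes that belong to none of the comparisons above concern transcripts near the limit of detection or outside the naming rule. Calcr, a maternally expressed receptor gene of the Peg10 domain, was not tested, with counts of 2, 0 and 0 in normal glucose against 21, 7 and 21 in high glucose. Rasgrf1, a paternally expressed exchange factor, was at 0.286 ± 0.0129 CPM in normal glucose and 0.130 ± 0.0369 CPM in high glucose (SD, n = 3; log2 fold change -1.13, adjusted p 0.0108 in edgeR). H13, a maternally expressed signal peptide peptidase, fell from 178 ± 6.61 to 142 ± 2.93 CPM (-0.33, adjusted p 0.000712), while Mcts2, the paternally expressed gene within it, was at -0.12 (adjusted p 0.373). These genes were chosen after their values were seen.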
